A study of Mus musculus with 6 samples.

Results

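The 9 genes described here mark tuft cells, and each was found as the row of the deposited table whose platform annotation gives exactly 1 gene symbol equal to its name. All 9 were measured, each by 1 transcript cluster, a set of probes that the array summarises as 1 gene, out of 22180 gene symbols and 23521 clusters tested in all. The data are log2 signals of RNA from normal-looking colonic mucosa beside tumours, from 6 male BALB/c mice on 1 Affymetrix Mouse Gene 2.0 ST array each. The groups were 2 Mthfd1S+/- mice, heterozygous for a deficiency of the synthetase activity of the folate enzyme MTHFD1, and 4 Mthfd1S+/+ mice, called WT below. All 6 mice were given the carcinogen azoxymethane (AOM; 6 mg/kg, intraperitoneal) and afterwards had dextran sulfate sodium (DSS, 3%), which injures the epithelium, for 4 days in each of 2 cycles begun 1 and 4 weeks later. They were killed 13 weeks after AOM, and no untreated colon is among the samples. The protocol puts AOM at 3 months of age, while the age label reads 7 months. The labels say neither how the allele was made nor what it does to the transcript.

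Tuft cells are rare chemosensory cells of the gut epithelium that carry an apical bundle of long microvilli. They sense luminal metabolites through a taste-like cascade of G proteins and calcium, which opens the cation channel TRPM5. Activated tuft cells release IL-25, which acts on the receptor subunit encoded by Il17rb on type 2 innate lymphoid cells, whose IL-13 in turn favours more tuft and goblet cells. In a bulk sample a lower level can mean fewer tuft cells or less RNA per cell, and these cannot be told apart.

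RefSeq promoter windows of GRCm38.p6, from 250 bases before to 50 bases after a transcript start, were at hand for 7 of the 9 genes in 8 windows, Dclk1 having 2, and none was used for Pou2f3 or Il25. They are shown because POU2F3 and GFI1B, the transcription factors among the 9, bind short motifs, and because Gnat3 and Il17rb, whose values varied widely between mice, differ in the base composition of their promoters. The octamer of POU factors, ATGCAAAT, was searched on both strands and was in 0 of the 8 windows, against 1.74% of 32851 windows in the table. Its first 7 bases, ATGCAAA, which are part of the octamer, were in 1 of the 8, that of Avil, against 4.63% of all windows. The GFI1 family motif AATCACNGC was also in that window alone among the 8, against 0.919% of all windows. In the Avil window, chr10:127000459-127000758 on the plus strand, capitals mark the 7-base matches, at -115 on the minus strand and at -15 on the plus strand, and the GFI1 family match at -51 on the minus strand, none of which overlap. In the windows of Gnat3 (chr5:17962320-17962619, plus strand) and Il17rb (chr14:30008847-30009146, minus strand) capitals mark CG pairs.
Avil: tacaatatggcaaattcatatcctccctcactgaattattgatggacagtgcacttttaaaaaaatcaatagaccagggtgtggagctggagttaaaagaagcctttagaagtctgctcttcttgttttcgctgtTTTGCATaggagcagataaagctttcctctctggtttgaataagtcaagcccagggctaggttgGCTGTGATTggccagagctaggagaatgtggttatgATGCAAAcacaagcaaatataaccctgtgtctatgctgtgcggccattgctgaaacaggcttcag
Gnat3: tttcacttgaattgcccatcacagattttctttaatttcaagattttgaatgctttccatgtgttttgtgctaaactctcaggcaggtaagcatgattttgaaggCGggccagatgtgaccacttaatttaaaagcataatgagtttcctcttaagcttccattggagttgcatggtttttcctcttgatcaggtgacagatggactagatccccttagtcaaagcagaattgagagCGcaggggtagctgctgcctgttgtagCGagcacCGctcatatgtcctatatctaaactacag
Il17rb: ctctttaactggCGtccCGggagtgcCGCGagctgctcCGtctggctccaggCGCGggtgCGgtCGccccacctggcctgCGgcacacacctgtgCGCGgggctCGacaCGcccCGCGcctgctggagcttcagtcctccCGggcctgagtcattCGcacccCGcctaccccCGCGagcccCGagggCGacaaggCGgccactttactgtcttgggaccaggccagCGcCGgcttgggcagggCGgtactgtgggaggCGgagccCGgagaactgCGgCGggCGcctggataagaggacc
The Il17rb window held 32 CG pairs and 90.5% of all windows held fewer, whereas the Gnat3 window held 4 and the Avil window 2. The other 5 windows held 5 to 7, near the median of 7 over all windows. A match to such letters is a description of the window and not a binding site.

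The targeted gene and the tissue were checked first. Mthfd1 stood at 7.96 and 7.63 in the Mthfd1S+/- mice, against 7.64, 7.63, 7.50 and 7.75 in the WT mice, so the groups overlapped and this level does not check the genotype. Epithelial genes were bright in every mouse, with the keratin gene Krt8 at 11.92 and 11.64 in Mthfd1S+/- and 11.87 to 12.00 in WT mucosa. The smooth muscle myosin gene Myh11 was also bright, at 11.66 and 12.02 in Mthfd1S+/- and 11.43 to 11.78 in WT samples, so muscle transcripts were read in all samples labelled mucosa. Medians over the tested clusters differed little between arrays, from 5.95 to 5.99.

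The brightness of each gene was set beside that of dim clusters. Signals of different probes do not rank the genes, but 1108 olfactory receptor clusters, most of whose genes are known from the nose, show what dim clusters look like on these arrays. Their median was 3.08 and their 95th percentile 5.26 on the log2 scale. The cluster means of 7 members lay above that 95th percentile, while Il17rb, at a mean of 5.18, and Pou2f3, at 4.64, lay below it. Gnat3 lay just above it, at 5.38. The median of all tested clusters was 5.97, and 4 members lay below it. As no detection calls were used, the signals of Pou2f3 and Il17rb cannot be told from background.

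**Figure D1:**
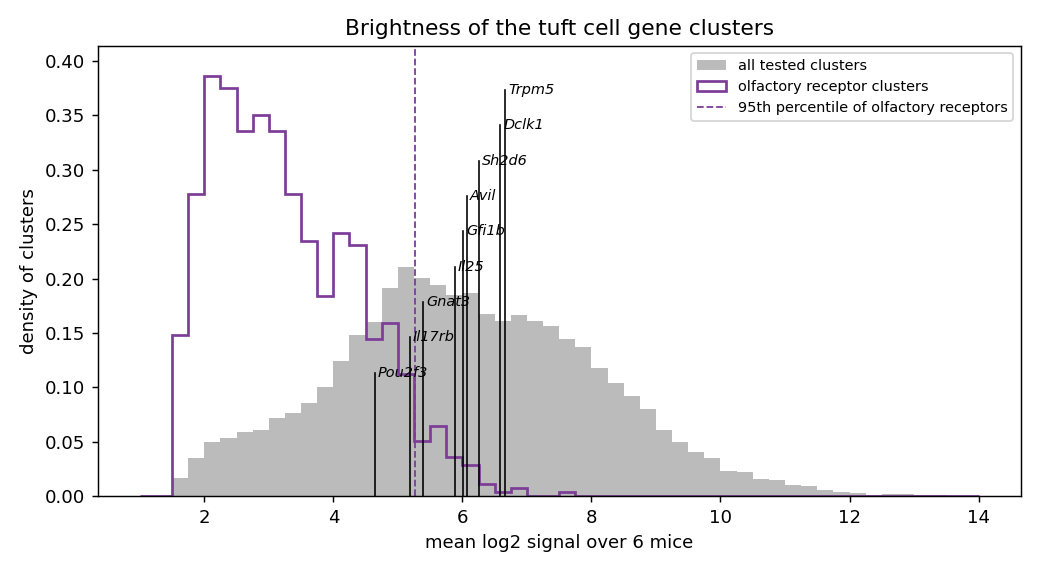
Distribution of the mean log2 signal over 6 mice (horizontal axis) for all tested clusters in grey and for olfactory receptor clusters in outline, as a density on the vertical axis, with a black line at each of the 9 tuft cell genes. Pou2f3 and Il17rb stand left of the dashed 95th percentile of the olfactory receptors (5.26) and the other 7 genes stand right of it.

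The transcription factor genes did not separate the genotypes. Pou2f3, which specifies the tuft lineage, read 4.34 and 4.81 in the Mthfd1S+/- mice, against 4.62, 4.41, 4.85 and 4.83 in the WT mice. The first Mthfd1S+/- mouse was the lowest of all 6 and the second lay among the higher WT mice. The group means were 4.58 ± 0.34 (SD, n = 2) and 4.68 ± 0.21 (SD, n = 4), and the log2 fold change was -0.099 ± 0.17 (SE). Gfi1b, which encodes a zinc finger repressor also used by erythroid cells and megakaryocytes, read 6.07 and 5.93 in Mthfd1S+/- and 5.90, 6.04, 5.98 and 6.14 in WT mucosa. Both Mthfd1S+/- values lay inside the WT range, with a log2 fold change of -0.013 ± 0.097. The 5 measured genes of the list of erythroid and megakaryocyte markers had log2 fold changes of -0.083 to -0.017.

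In the taste-like cascade, Gnat3 had the widest spread between mice of the 9 genes. Gnat3, which encodes the taste G protein subunit gustducin, read 4.96 and 5.76 in the Mthfd1S+/- mice, against 5.06, 5.49, 5.42 and 5.62 in the WT mice. Of these, 4.96 and 5.06 lay below the olfactory receptors' 95th percentile of 5.26, so they were not shown to be above background. The Mthfd1S+/- mice were the lowest and the highest of the 6, and their mean of 5.36 ± 0.57 (SD, n = 2) and the WT mean of 5.40 ± 0.24 (SD, n = 4) gave a log2 fold change of -0.040 ± 0.22 (SE). Trpm5, the channel at the end of the cascade, read 6.64 and 6.76 in Mthfd1S+/- and 6.51, 6.70, 6.64 and 6.74 in WT mucosa. Its 6 values spanned only 0.25, against 0.80 for Gnat3, and its log2 fold change was 0.051 ± 0.096.

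The IL-25 ligand and its receptor differed in sign. Il25 read 5.88 and 6.08 in the Mthfd1S+/- mice, against 5.68, 5.80, 5.95 and 5.89 in the WT mice. The second Mthfd1S+/- mouse was the highest of all, the first lay inside the WT range, and the log2 fold change was 0.15 ± 0.11 (SE). Il17rb, expressed by tuft cells as well as by cells that respond to IL-25, read 4.86 and 5.28 in Mthfd1S+/- and 5.15, 5.05, 5.44 and 5.30 in WT mucosa. Here the first Mthfd1S+/- mouse was the lowest of all and the second lay inside the WT range, with a log2 fold change of -0.16 ± 0.15. These are the largest values in either direction among the 9 genes. Neither passed the test, with an adjusted p of 0.89 for Il25 and of 0.91 for Il17rb in limma.

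Genes of tuft cell structure and signalling gave the same picture of overlapping groups. Dclk1, a microtubule-linked kinase used as a tuft cell marker and also expressed in neurons, read 6.45 and 6.76 in the Mthfd1S+/- mice, against 6.45, 6.38, 6.85 and 6.63 in the WT mice. Both Mthfd1S+/- values lay inside the WT range, and the log2 fold change was 0.026 ± 0.15 (SE). Avil, which encodes the actin-binding protein advillin, read 5.98 and 6.24 in Mthfd1S+/- and 5.91, 6.05, 6.10 and 6.11 in WT mucosa, with the second Mthfd1S+/- mouse highest and a log2 fold change of 0.069 ± 0.11. Sh2d6, which encodes an SH2 domain protein, read 6.03 and 6.31 in Mthfd1S+/- and 6.22, 6.32, 6.20 and 6.47 in WT mucosa. The first Mthfd1S+/- mouse was the lowest of all for Sh2d6, and the log2 fold change was -0.13 ± 0.12.

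**Figure D2:**
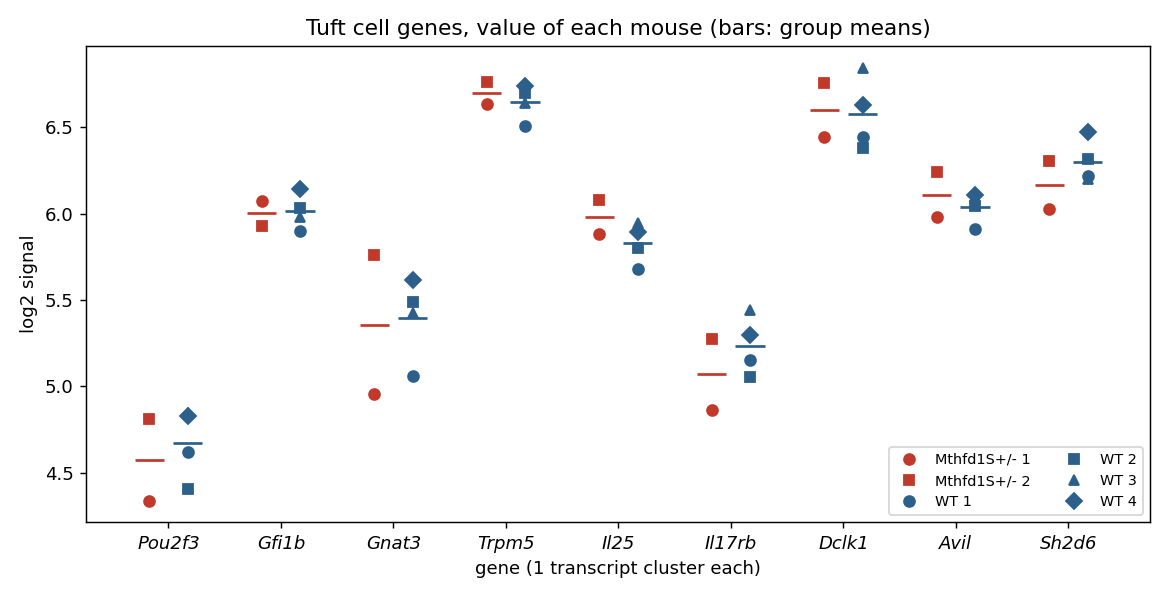
Log2 signal (vertical axis) of each of the 9 genes in every mouse, with the Mthfd1S+/- mice in red at the left and the WT mice in blue at the right of each gene, and horizontal bars at the group means. The points of the 2 genotypes overlap for every gene, and the Mthfd1S+/- mice lie farthest apart for Gnat3 (4.96 and 5.76), while heights of different genes are not comparable.

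Across the 9 genes, 0 passed the adjusted threshold in limma, as did 0 of the 23521 clusters (0%), and a fit without moderated variances also gave 0. The count at an unadjusted p under 0.05 was 0 of 9, against 5.79% of all tested clusters. The groups overlapped for all 9, so 0 of 9 were fully apart, against 14.0% of clusters. With a single Mthfd1S+/- mouse set against the 4 WT mice, 4 of 9 lay outside the WT range without the first (45.0% of clusters) and 4 of 9 without the second (40.7%). In Mthfd1S+/- mucosa 5 of the 9 were lower, as were 46.0% of clusters, and the median log2 fold change of the 9 was -0.013, against 0.012 for all tested clusters. Adjusted p-values in limma ran from 0.89 to 0.99. The 95% intervals of all 9 included 0, and all 9 lay inside a 1.5-fold difference in either direction, the widest being that of Gnat3 from -0.55 to 0.47. The narrowest was that of Trpm5, from -0.17 to 0.27. These intervals take the variance of each gene as moderated over all clusters and rest on 6 arrays, and a p that misses the threshold does not show that the groups were alike. Without moderation the SE of Gnat3 was 0.30, against 0.22 in the main fit, while that of Trpm5 was 0.084, against 0.096. Intervals were not computed for that fit, so the 1.5-fold limit holds for the moderated fit only.

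**Figure D3:**
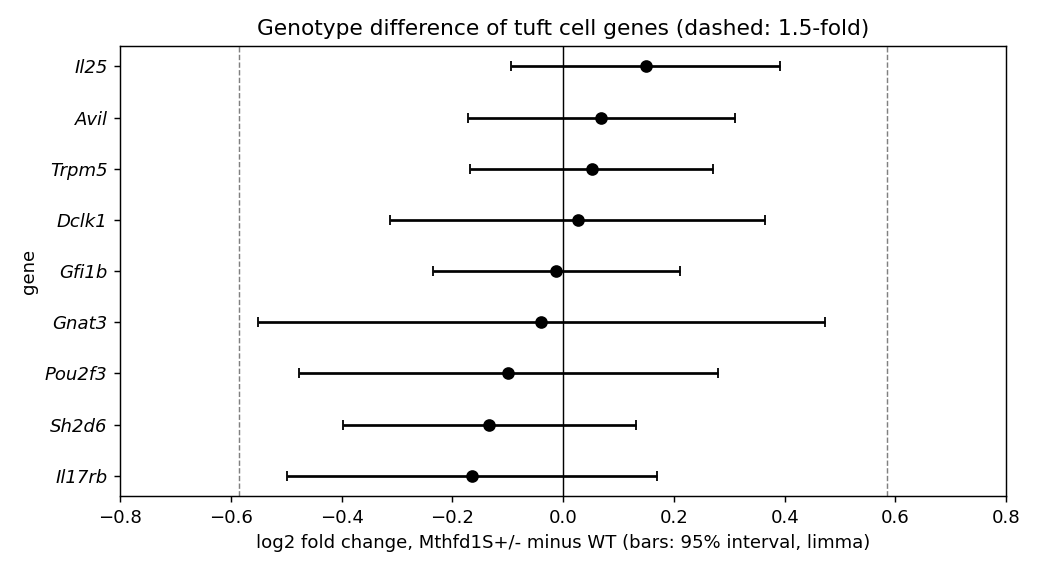
Log2 fold change of each of the 9 genes, Mthfd1S+/- minus WT (horizontal axis), with its 95% interval from limma, ordered by value. Every interval includes 0 and lies between the dashed lines at 1.5-fold, from Il25 at 0.15 to Il17rb at -0.16.

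The 2 Mthfd1S+/- mice lay farther apart than the group means for each of the 9 genes, the gap between them exceeding the size of the log2 fold change. The share of all clusters with such a gap was not counted. A gap between 2 single mice varies more than a difference between group means, so this count cannot be read as particular to these genes. The second Mthfd1S+/- mouse was above the first for 8 of 9 genes, Gfi1b being the exception, whereas this held for 47.0% of all tested clusters. The gap was 0.80 for Gnat3, 0.47 for Pou2f3, 0.41 for Il17rb, 0.31 for Dclk1 and 0.28 for Sh2d6. Its median over the 9 was 0.28, and over all clusters the median was -0.015 with sign and 0.13 in size. For Gnat3, 0.736% of all clusters had a gap of that size or more, and for Pou2f3 5.63% did. These shares describe where the genes lie among the clusters of these arrays and are not a test.

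The 9 genes also tended to be high or low in the same mice. With each gene centred on its own mean over the 6 mice, the mean of the 9 was -0.16 and 0.14 in the Mthfd1S+/- mice, against -0.13, -0.048, 0.084 and 0.12 in WT mice 1 to 4. The first Mthfd1S+/- mouse was below the gene's mean for 7 of 9 genes and was the lowest mouse for 4, while 13.8% of all clusters had their lowest value there. WT mouse 1 was below for 9 of 9 and the lowest for 4, against 19.0% of clusters. WT mouse 4 was above for 9 of 9, and the second Mthfd1S+/- mouse was above for 8 and the highest for 4, against 19.3% of clusters. Gfi1b departed from this pattern, being above its mean in the first Mthfd1S+/- mouse and below it in the second. The percentages given are for being the lowest or the highest mouse. The shares of all clusters below or above their own mean in each mouse were not counted, so those counts have no baseline.

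**Figure D4:**
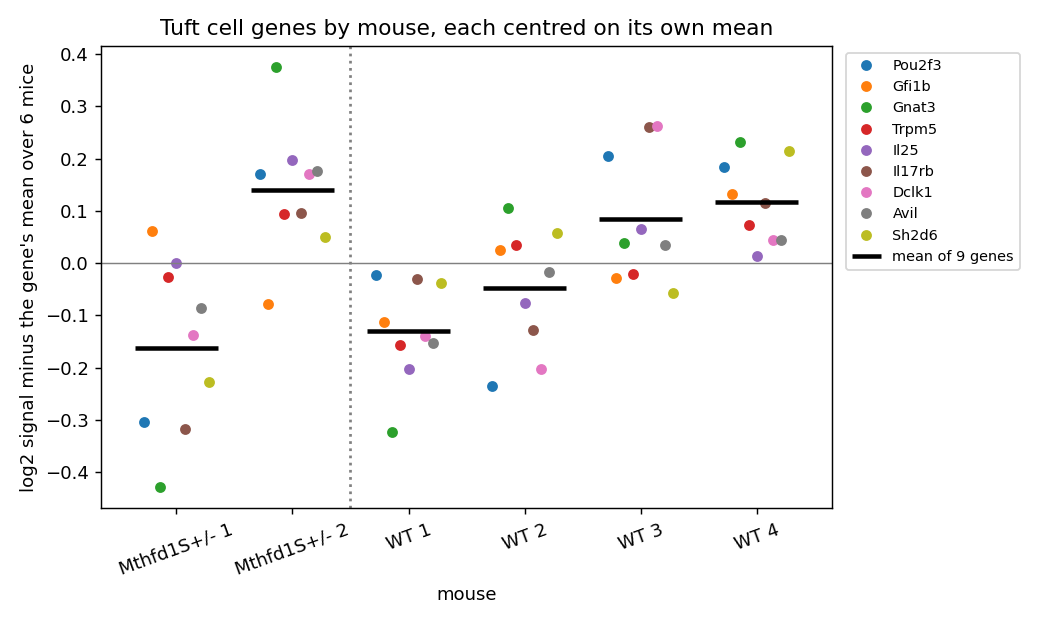
Log2 signal of each of the 9 genes minus its mean over the 6 mice (vertical axis) for each mouse (horizontal axis), with 1 colour per gene and a black bar at the mean of the 9. The bars of the Mthfd1S+/- mice lie at -0.16 and 0.14 and those of the WT mice between -0.13 and 0.12, so the Mthfd1S+/- bars lie just beyond both ends of the WT range.

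The direction of every one of the genes except Il25 therefore turned on which Mthfd1S+/- mouse was used. Without the first one, the log2 fold change was 0.36 for Gnat3, 0.14 for Pou2f3, 0.042 for Il17rb and 0.0058 for Sh2d6. Without the second one, the values were -0.44, -0.34, -0.37 and -0.27 in the same gene order. Dclk1, Avil and Trpm5 had 0.18, 0.20 and 0.11 without the first one and -0.13, -0.062 and -0.0094 without the second. Gfi1b turned the other way, from -0.083 to 0.058. Only Il25 kept its sign, with 0.25 and 0.050. The median of the 9 was 0.14 without the first and -0.13 without the second, and 0 genes passed the adjusted threshold either way. Such a fit holds a single Mthfd1S+/- array, which is assumed to vary like the WT arrays.

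The mouse identifiers carry a letter, A or B, whose meaning the labels do not give, and both letters hold both genotypes. The first Mthfd1S+/- mouse and WT mouse 1 have the letter A. For 3 of the 9 genes, Gnat3, Trpm5 and Avil, both mice with letter A were below all 4 mice with letter B, as were 5.65% of all clusters. Within letter A the Mthfd1S+/- mouse minus the WT mouse had a median of 0.0017 over the 9 genes, with 5 higher and 4 lower. Within letter B the Mthfd1S+/- mouse minus the mean of the 3 WT mice had a median of 0.12, with 7 higher and 2 lower. With the letter as a covariate in the fit, the median log2 fold change of the 9 was 0.083, 4 were lower, and Il25 had 0.20, Avil 0.12 and Gnat3 0.11. In that fit 0 of the 9 were at an unadjusted p under 0.05, against 7.83% of all clusters, and 0 passed the adjusted threshold in limma.

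Markers of other cell types moved across the same mice. The 12 smooth muscle markers had list means of -0.069 and 0.41 in the Mthfd1S+/- mice, against -0.16, -0.26, -0.022 and 0.10 in WT mice 1 to 4, each gene centred as above. The 11 measured markers of enteric neurons and glia, cells in which Dclk1 is also known, had 0.042 and 0.39 in Mthfd1S+/- mice and -0.26, -0.37, 0.047 and 0.15 in WT mice. The 15 enteroendocrine markers, of the other rare sensory cells of the epithelium, had 0.098 and 0.28 in Mthfd1S+/- mice, against -0.27, -0.18, 0.023 and 0.049 in WT mice. The first Mthfd1S+/- mouse was thus low for the tuft cell genes and near or above the average for nerve and endocrine markers. The 12 general epithelial markers ran the other way, with -0.019 and -0.097 in Mthfd1S+/- mice and 0.062, 0.032, 0.050 and -0.028 in WT mice. The 10 goblet cell markers averaged -0.28 and 0.030 in Mthfd1S+/- mice, against -0.086, 0.11, 0.24 and -0.018 in WT mice, so the first Mthfd1S+/- mouse was lowest there too. Every measured smooth muscle, neuron and glia, and enteroendocrine marker had a higher mean in Mthfd1S+/- mucosa, with median log2 fold changes of 0.25, 0.30 and 0.26, and 0 of them passed the adjusted threshold in limma (1 of 12, 4 of 11 and 2 of 15 at an unadjusted p under 0.05, against 5.79% of all clusters). Medians were 0.12 for fibroblast, -0.10 for epithelial, -0.015 for goblet cell, -0.011 for colonocyte, 0.016 for T and NK cell, -0.094 for B and plasma cell and -0.53 for adipocyte markers, also with 0 past the adjusted threshold and 9 of 63 at an unadjusted p under 0.05, against 5.79% of all clusters. The part of muscle, nerve or epithelial content in the tuft cell values was not tested. When the fit took the smooth muscle mean as a covariate, 8 of the 9 genes had a negative log2 fold change, as did 45.4% of all clusters. That covariate was far higher in the second Mthfd1S+/- mouse (0.41) than in any other mouse (-0.26 to 0.10), so the fit leans on 1 mouse. In it the Pou2f3 and Il17rb values were -0.37 and -0.38. Their unadjusted p-values were 0.010 and 0.013 in limma, where 4.98% of all clusters were under 0.05, and the adjusted p-values were 0.95 and 0.96. Pou2f3 and Il17rb are also the 2 of the 9 whose mean signals lay below the olfactory receptors' 95th percentile, so they were not shown to be above background.

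**Figure D5:**
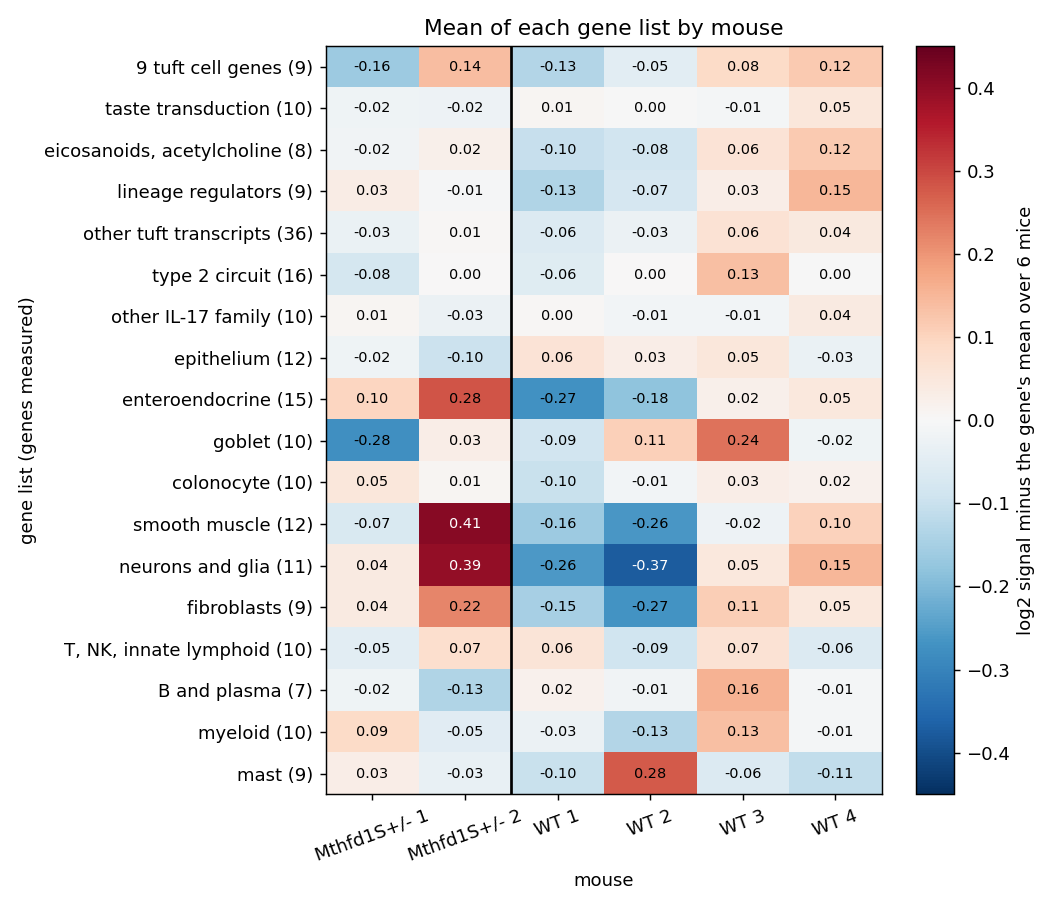
Mean of each drawn gene list (rows, with the number of genes measured) in each mouse (columns). Mthfd1S+/- mice are left of the black line and WT mice right of it. Each gene was centred on its mean over 6 mice, on a log2 scale in colour and print. The lists of relatives, of erythroid and megakaryocyte markers and of adipocyte markers are not drawn. The adipocyte list averaged from -0.61 in the first Mthfd1S+/- mouse to 1.16 in WT mouse 3. The row of the 9 tuft cell genes is low in the first Mthfd1S+/- mouse (-0.16) and WT mouse 1 (-0.13), and the muscle and nerve rows are highest in the second Mthfd1S+/- mouse (0.41 and 0.39).

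Other genes of the tuft cell programme were read from lists of their receptors, effectors and regulators. Of 10 measured genes of taste transduction, 3 had a higher and 7 a lower mean in Mthfd1S+/- mucosa. Their median log2 fold change was -0.056, with 0 at an unadjusted p under 0.05 or past the adjusted threshold in limma. Plcb2, the phospholipase downstream of gustducin, read 6.06 and 6.34 in Mthfd1S+/- and 6.28 to 6.46 in WT mucosa, for a log2 fold change of -0.18 ± 0.11 (SE). Ffar3, a receptor for short-chain fatty acids, had -0.068 ± 0.089, and Sucnr1, the receptor for succinate, had 0.010 ± 0.090, both with cluster means under the 95th percentile of the olfactory receptors. Centred as above, this list averaged -0.021 and -0.024 in the Mthfd1S+/- mice, so the 2 mice lay close together, and 0.0084, -0.0030, -0.0097 and 0.049 in the WT mice.

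Of 8 measured effector genes, 4 were higher and 4 lower, with a median of -0.0090 and again 0 at an unadjusted p under 0.05 or past the adjusted threshold in limma. Hpgds, which makes prostaglandin D2, had -0.20 ± 0.13 (log2 fold change and SE), and Alox5, which begins leukotriene synthesis, had -0.19 ± 0.16. Both are also expressed in leukocytes, where 10 myeloid markers had a median of 0.054. The 9 mast cell markers had a median of 0.083, but only 1 of them was above the olfactory receptors' 95th percentile. Mcpt4, named after its value was seen, had -0.56 ± 0.11, with an adjusted p of 0.84 in limma. Its cluster mean of 3.22 lay below that percentile, so it was not shown to be above background. Chat, which makes acetylcholine, had -0.0996 ± 0.096, while Slc18a3, the vesicular acetylcholine transporter of neurons, had 0.38 ± 0.17, with 5.64 and 6.16 in Mthfd1S+/- and 5.21 to 5.69 in WT mucosa.

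Of 9 measured lineage regulators, 5 were higher and 4 lower. In limma 1 was at an unadjusted p under 0.05, against 5.79% of all clusters, and 0 passed the adjusted threshold. That gene was Sox4, a factor of secretory precursors that has been placed upstream of tuft cells in mice, with 7.40 and 7.08 in Mthfd1S+/- and 6.87, 6.91, 7.04 and 7.04 in WT mucosa. Its log2 fold change was 0.27 ± 0.11 (SE), with an unadjusted p of 0.039 and an adjusted p of 0.84 in limma. The groups did not overlap for 2 of the 9 regulators, Sox4 and Nrep (0.20 ± 0.095), against 14.0% of all clusters. Atoh1, which drives other secretory cells, had -0.27 ± 0.20, with 9.24 and 9.99 in Mthfd1S+/- and 9.71 to 10.11 in WT mucosa. Of 36 measured other tuft cell transcripts, 17 were higher and 19 lower, 5 were at an unadjusted p under 0.05, against 5.79% of all clusters, and 0 past the adjusted threshold in limma. Of the 5, 2 were higher and 3 lower. The higher ones were Rgs2 (0.43 ± 0.14), a regulator of G protein signalling, and Ly6g6d (0.22 ± 0.094), which is named after its value was seen. The rule for this list allowed up to 4 names, those with the smallest unadjusted p, so the others were picked by their values too. The adaptor genes Skap2 (-0.26 ± 0.086) and Fyb (-0.27 ± 0.094), both also expressed in leukocytes, and the kinase gene Bmx (-0.26 ± 0.11) were the lower ones, with adjusted p = 0.84 for each of the 5.

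Around IL-25, 16 measured genes of the type 2 circuit showed a median of 0.012 on the log2 scale, with 9 higher and 7 lower and 0 at an unadjusted p under 0.05 or past the adjusted threshold in limma. Only 10 of the 16 had cluster means above the olfactory receptors' 95th percentile. Il4, Il5, Il9, Il13ra2, Tslp and Klrg1 were below it and were not shown to be above background. Il13, the cytokine that acts back on the epithelium, read 5.57 and 5.20 in Mthfd1S+/- and 5.29, 5.49, 5.63 and 5.68 in WT mucosa, with a log2 fold change of -0.14 ± 0.14 (SE). Its receptor subunit genes Il13ra1 and Il4ra had -0.042 ± 0.11 and 0.085 ± 0.085. Retnlb, a goblet cell gene that IL-13 induces, read 9.12 and 10.02 in Mthfd1S+/- and 10.04, 11.37, 11.86 and 9.60 in WT mucosa, and its log2 fold change of -1.15 ± 0.59 came with overlapping groups. Of 10 other IL-17 family genes, 3 were higher and 7 lower, all between -0.079 and 0.12, again with 0 at an unadjusted p under 0.05 or past the adjusted threshold. Cluster means of 7 of these 10 lay above the olfactory receptors' 95th percentile.

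Relatives of the 9 genes were set beside them because probes can read near copies. Sh2d7, a relative of Sh2d6 and itself a tuft cell transcript, read 5.52 and 5.93 in Mthfd1S+/- and 5.61, 5.78, 6.16 and 5.96 in WT mucosa, with a log2 fold change of -0.15 ± 0.17 (SE). As with Gnat3, it was lowest in the first Mthfd1S+/- mouse and next lowest in WT mouse 1. Gfi1, the relative of Gfi1b, had 0.0025 ± 0.097, and the rod transducin gene Gnat1, a relative of Gnat3, had -0.080 ± 0.093. Pou2f2 had 0.078 ± 0.098, Dclk2 had -0.050 ± 0.081 and Trpm4 had -0.11 ± 0.093. Of the 15 relatives measured, 0 were at an unadjusted p under 0.05 or past the adjusted threshold in limma.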

How the data were processed

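The authors deposited 1 log2 value per transcript cluster and array, and the submitters' processing notes name Affymetrix Expression Console; its version, its algorithm and the genome build were not given in the sources used here. Values from 1.06 to 13.5 fit a log2 scale of scanner signals. Of 41345 clusters, 23521 with exactly 1 symbol in the platform table were tested, 1814 had several symbols and 16010 none. Entrez identifiers of 9 of 9 tuft cell genes matched the same symbol in RefSeq (GRCm38.p6).

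The genotype term was fitted in R 4.3.3 with limma 3.58.1 (lmFit, eBayes; two-sided; degrees of freedom 4 residual plus 4.35 prior). P-values were adjusted by Benjamini-Hochberg across the 23521 clusters, with a threshold of 0.05. The fit was tested on simulated data. Arrays are biological replicates per the labels, and their number limits the precision: the median SE of a log2 fold change was 0.106. The members, lists and tests were chosen with earlier results of these data known. All members, their relatives and genes of the tuft pathway lists could be named, and of other lists up to 4 genes with the smallest p. Listed genes with no cluster of 1 symbol were not analysed here. The alternatives tried were 2 other scalings, other sets of rows, other variance models, a replicate block, 2 covariates and each mouse left out.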

Additional observations from a re-analysis of the deposited data

How the results depend on the processing

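Under all 16 alternatives 0 tuft cell genes passed the adjusted threshold, the smallest adjusted p of any of the 9 being 0.57. The count of the 9 genes whose groups do not overlap was 0 under both scalings and without each WT mouse. With a single Mthfd1S+/- mouse it was 4 without the first (Trpm5, Il25, Avil and Gnat3, above) and 4 without the second (Pou2f3, Gnat3, Sh2d6 and Il17rb, below), against 45.0% and 40.7% of all clusters. Of 99 single-gene values from the 11 alternatives that can move a fold change, 78 kept their sign and 21 turned, while the other alternatives leave it as it is by construction. The alternative that took the lowest-mean cluster of each gene repeated the main fit in full, p-values included, as each of the 9 genes has 1 cluster. Its outcome was thus fixed in advance. A smooth muscle covariate gave a median of -0.17 over the 9 genes. In that fit Avil had -0.049, Dclk1 -0.17 and Trpm5 -0.012. Median-centred arrays gave Dclk1 -0.0014, and quantile normalization gave Gfi1b 0.011. With the identifier letter as a covariate Gnat3 had 0.11. With the replicate number as a block, Gfi1b had 0.036, Gnat3 0.082 and Pou2f3 0.063, the median of the 9 was 0.082 and 0 genes passed. Whether the numbers pair the mice is not known. Deviations from the group means correlated at 0.12 for number 1 and -0.044 for number 2 across clusters. With 2 Mthfd1S+/- mice their deviations mirror each other, and both mice numbered 1 have the letter A, so these values cannot settle it. Leaving out each mouse in turn gave medians of -0.13 to 0.14. By gene the ranges were -0.062 to 0.20 for Avil, -0.13 to 0.18 for Dclk1, -0.083 to 0.058 for Gfi1b, -0.44 to 0.36 for Gnat3, -0.37 to 0.042 for Il17rb, -0.34 to 0.14 for Pou2f3, -0.27 to 0.0058 for Sh2d6 and -0.0094 to 0.11 for Trpm5. The lowest and highest of these came from leaving out a Mthfd1S+/- mouse. The cause of these shifts was not tested beyond the values by mouse. Pou2f3 gave no value when clusters with a mean below 4.69 were left out. Small numbers of arrays and dim clusters limit what could be seen.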

Other observations

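Outside the listed genes, the clusters most like the mean profile of the 9 tuft cell genes over the 6 arrays were those of Asb11 (Pearson r = 0.997), Slc6a11 (r = 0.993) and Fblim1 (r = 0.989). They are the highest of 23521 clusters over 6 arrays that share 1 treatment, and 179 clusters had r of at least 0.9, so this is a description of these arrays. Asb11 read 5.61 and 5.89 in the Mthfd1S+/- mice, against 5.65, 5.72, 5.82 and 5.86 in the WT mice.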
